A study of Mus musculus with 4 samples.

Results

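The m6A peaks described here were those shared by both immunoprecipitation (IP) replicates of mouse whole brain that were centred on short internal coding exons. A shared interval was the stretch in which peaks of both lists overlapped. Its midpoint was placed on the mRNA with the longest CDS (coding sequence) of each gene, and an interval was kept when the midpoint lay in the CDS, in an exon shorter than 200 nt that was neither the first nor the last, and more than 200 nt from the start and the stop codon. Of 23901 shared intervals, 19717 could be placed on a representative mRNA, and 2575 of these, 13.1%, met the rule. They lay in 2575 different exons of 1484 genes. The choice used position and exon length and no enrichment value.

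The RNA came from brain of mice aged 4 weeks, described as Prrc2a flox/flox in the design text and as strain C57BL/6J in the sample labels, with no Cre allele named for them. Poly(A) RNA was fragmented, bound with a polyclonal antibody against N6-methyladenosine (m6A) and sequenced beside its input, giving 2 IP and 2 input samples. Whether a brain or a pool of brains stood behind a sample was not given in the sources used here, and whole brain mixes all neural cell types. The lists hold no expression levels, so that the tissue label was not checked against marker genes. They gave 38533 peaks in replicate 1 and 30134 in replicate 2, each with a fold enrichment, the linear ratio of IP over input.

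As background, m6A is written on nuclear RNA by the Mettl3-Mettl14 complex, mostly within GGAC-type sites. It is known to be dense in long internal exons and near stop codons and sparse in short internal exons, where exon junction complexes, the protein marks left by splicing close to each junction, keep the writer away. Peaks centred on short internal exons are therefore the less usual kind, and the sequences around them were examined first.

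The stretches below show the purine-rich sequence found in many of the strongest short-exon intervals. Apart from the first, each is the 29 nt of the exon that hold the most purines (A or G), a choice made after the values had been seen, and capitals mark the longest unbroken run of purines in it. In the first, capitals mark GGACT, the consensus m6A motif. Of the 20 strongest intervals described further on, 1 had a GGACT at least 12 nt inside its exon. All were read 5′ to 3′ on the strand of the gene from GENCODE M21 transcripts and matched the mm10 genome sequence.
Aebp1 (chr11:5865036-5865064, plus strand): gatgcccacactGGACTacaatgaccaga
Tnnt2 (chr1:135848045-135848073, plus strand): tcgagaacAGGAAGAAGGAGGAAGAGGAG
Dach1 (chr14:97828338-97828366, minus strand): tAAAGAAGGAAAAGAAAGcaaagagaaaa
Nkap (chrX:37136786-37136814, plus strand): aaaagacagagccAAGAAAAAGAGAAAGA
Chd2 (chr7:73507831-73507859, minus strand): agagagtgaggcagaacAAAAGAAAGGAA
Dbn1 (chr13:55481662-55481690, minus strand): aaggaggaagagctgcGGAAGGAGGAGGA
Safb (chr17:56601240-56601268, plus strand): AAGAGGGAGGAGAAAGGtgagagaaaaga
Dnajc2 (chr5:21766641-21766669, minus strand): AAGGAGAAAGAAGAGGAAGAAGttagaca
For contrast, the most purine-rich stretch of the exon of Rph3al, which stood 4th by enrichment, held 19 purines of 29.
Rph3al (chr11:75854446-75854474, minus strand): GGAAGAGGtcaggggcctggttctacaaa
The stretch in Safb held 28 purines of 29 and that in Dach1 27, and those in Tnnt2, Nkap, Chd2, Dbn1 and Dnajc2 26 each. Not all of the strongest were so rich, and the stretches picked in this way held 24 purines in Ccdc153, 23 in Aebp1, 22 in Brdt, 21 in Ppp1r12c and 19 in Col7a1. Picking the richest 29 nt raises the count in any exon. In exons from 100 to under 150 nt, stretches picked alike held a median of 23 purines in the 1084 exons with an interval and 20 in the 5989 exons of the same genes with no peak. At least 26 were reached in 18.1% of the former and 0.968% of the latter.

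Exons with a shared interval were rich in purines. In the window of spliced mRNA that reached 100 nt to each side of the central base of the exon, A and G made up 62.2% ± 7.26 (SD over 2575 exons), compared with 53.5% ± 5.08 in the 14721 short internal exons of the same genes that held no peak base in either list. The excess concerned both purines, with 32.5% A against 27.4% and 29.7% G against 26.1%. T was the base that gave way most, at 16.1% against 22.2%, while the GC content hardly moved (51.4% and 50.4%). A purine share above 60% was found in 71.7% of the exons with an interval and in 10.1% of those with no peak. This comparison was added after the 5-mers had been seen and is given as a description.

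**Figure D1:**
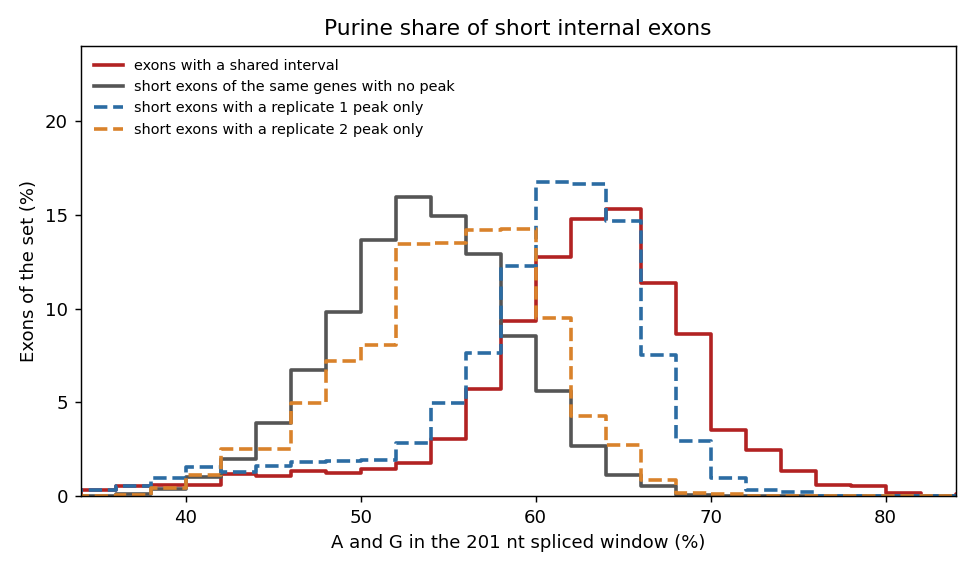
Share of A and G in the spliced window around the centre of short internal exons (x axis, %) against the share of exons of each set (y axis, %), in bins of 2 percentage points. Exons with a shared interval (mean 62.2%) lie to the right of exons of the same genes with no peak (mean 53.5%), as do exons with a peak in replicate 1 only (59.6%), while exons with a peak in replicate 2 only (54.95%) lie close to them.

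Purine-rich short exons held an interval far more often than the others. Over all 67465 eligible short internal exons of genes with a placed interval, 3.82% held one. The share was 2.11% of the 4559 exons with less than 45% purines and lowest in the middle classes. Among the 24199 exons with 50 to 55% purines it was 0.471%, among the 6043 exons with 60 to 65% it was 14.8%, among the 1770 exons with 65 to 70% it was 40.7%, and among the 375 exons with 70% or more it was 60.8%. Each list on its own showed the same pattern. Replicate 1 peaks were centred in 1.04% of the exons with 50 to 55% purines and in 66.9% of those with 70% or more, and replicate 2 peaks in 2.34% and 60.8%.

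Fold enrichment was higher at high purine share within the short-exon intervals, more in replicate 1 than in replicate 2. When the intervals were divided into 5 groups of 515 by purine share, the median fold enrichment of the lowest group was 2.00 in replicate 1 and 1.73 in replicate 2. In the highest group it was 3.34 in replicate 1 and 2.00 in replicate 2. The second group did not stand above the lowest, with medians of 2.03 and 1.68. Both values reached 2 or more in 22.5% of the intervals of the lowest and 47.8% of the highest group. Over the 2575 intervals Spearman's rho between purine share and fold enrichment was 0.455 in replicate 1 and 0.202 in replicate 2. The points are exons of the same pair of libraries and are not independent.

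**Figure D2:**
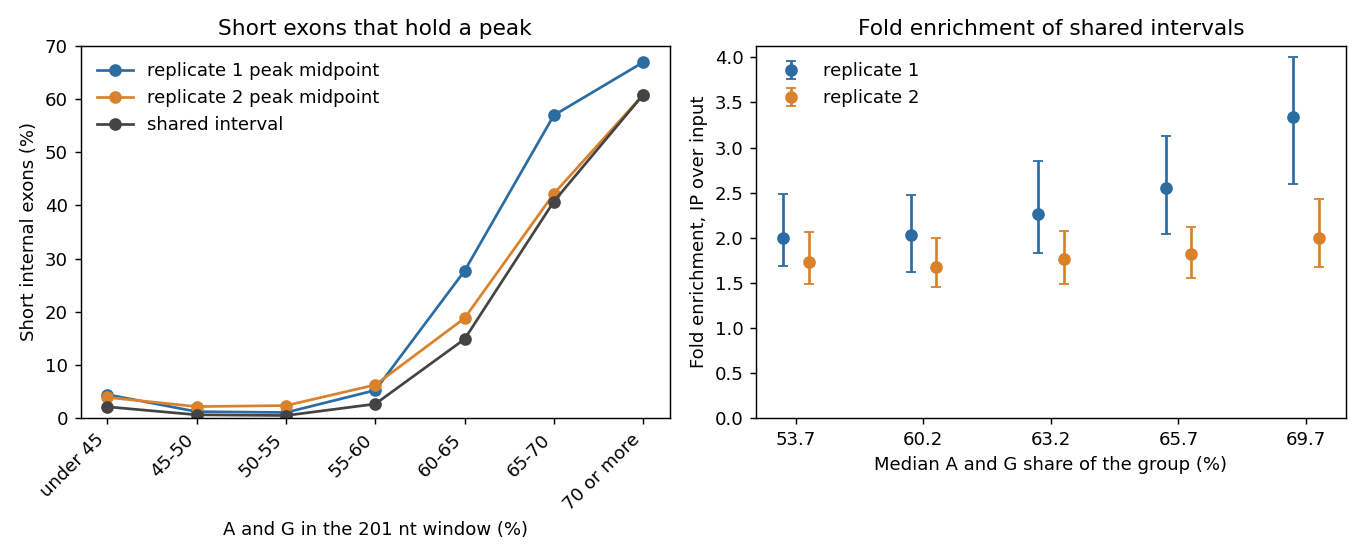
Left, share of eligible short internal exons (y axis, %) that hold a peak midpoint of replicate 1, of replicate 2 or a shared interval, by A and G share of the window (x axis, %). The shared share goes from 0.471% at 50 to 55% purines to 60.8% at 70% or more. Right, fold enrichment (y axis, IP over input) of shared intervals in 5 equal groups by purine share (x axis, group median in %), points for medians and bars for quartiles. The medians of replicate 1 go from 2.00 to 3.34 and those of replicate 2 from 1.73 to 2.00.

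The letters that recurred were GAA and GGA repeats. All possible 5-mers were ranked by the odds ratio of presence in windows with an interval over windows with no peak, on the strand of the mRNA, with overlapping 5-mers counted separately. Of the first 20, 18 were made of A and G only, and all 32 such 5-mers had an odds ratio above 1. GAGGA stood first, present in 69.9% of windows with an interval and 40.6% without a peak (odds ratio 3.40), and AGAAG followed with 78.4% against 51.6% (odds ratio 3.40). GAAGA was present in 77.1% against 51.2%. The last ranks were held by T-rich 5-mers, TCTTT with 6.45% against 17.5% being the last. The excess was not limited to short exons. In long internal exons, each of the first 20 was also more frequent in windows around intervals than in exons with no peak. There GAGGA was present in 49.6% against 37.6%, AGAAG in 51.4% against 42.7% and GAAGA in 48.9% against 43.8%. Short and long exons were not compared by a test. As background, GAA-rich stretches in exons are known as splicing enhancers read by SR proteins, and this role was not tested here.

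In the reading frame the same letters spell acidic and basic codons. GAA and GAG, which encode glutamate, made up 14.1% of 109624 codons in exons with an interval and 7.54% of 557554 codons in exons with no peak. AAA and AAG, which encode lysine, made up 10.0% and 6.43%. As background, runs of such codons are known from coiled coils, rod-like helical bundles. Some of the genes named below encode proteins of that kind, and whether such genes are more frequent here was not tested.

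GGACT was not in excess in these exons. It was present in 387 of 2575 windows with an interval, 15.0% (95% Wilson interval 13.7 to 16.5), and in 3022 of 14721 windows of exons with no peak, 20.5% (19.9 to 21.2), against 20.5% over all eligible short exons. By Fisher's exact test over exons, two-sided, this was an odds ratio of 0.685 (0.610 to 0.768) with p = 3.67e-11, and the Benjamini-Hochberg adjusted p over 4 tests was 3.67e-11. Windows can reach into neighbouring exons and overlap each other, so that exons are not independent. Within the exon itself the odds ratio was 0.795, with Fisher's exact p = 0.00132. The shorter GGAC was present in 60.5% and 61.3% of windows, an odds ratio of 0.966 with Fisher's exact p = 0.443, so that no difference was called for it. The reverse complement AGTCC was found in 17.3% of windows with an interval and 17.5% with no peak. GGACT holds 2 pyrimidines, so that its frequency was also set beside all eligible exons of like purine share. These include the exons with an interval, which draws the shares together where such exons are many, and no test was made. Among exons with 60 to 65% purines GGACT was present in 18.1% of those with an interval and 17.8% of all eligible exons. At 65 to 70% it was present in 9.29% and 11.4%, and at 70% or more in 9.21% and 9.60%. Among exons with less than 45% purines it was present in 11.5% of those with an interval and 19.6% of all.

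The 387 intervals whose window held GGACT were not stronger than the rest. Their median fold enrichment was 2.17 in replicate 1 and 1.74 in replicate 2, compared with 2.40 and 1.80 for the 2188 intervals without it. Of the related sites, AGACT was present in 23.1% of windows with an interval and 21.1% with no peak, and GAACT in 23.5% and 22.5%. In shared intervals of long internal exons, of 200 nt or more and chosen by the same distance from the codons, the windows around the midpoint held GGACT in 26.96%, and the centres of long exons with no peak in 19.9%. Their purine share was 54.8% ± 8.91 and 50.9% ± 5.05, so that it was higher with an interval in long exons too.

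A small number of intervals had the opposite composition. A purine share under 50% was found for 181 intervals, 7.03%, in 164 genes, with median fold enrichments of 2.02 and 1.70 in replicates 1 and 2. Such exons held an interval less often than the 3.82% of all eligible short exons. It was 2.11% of the 4559 exons under 45% purines and 0.604% of the 14083 with 45 to 50%. GGACT was in 13.8% of the windows of the 181, and in 19.6% and 20.9% of all eligible exons of these classes. The intervals under 45% purines averaged 39.9% C. The strongest, in exon 15 of Wnk3, which encodes a kinase that regulates ion cotransporters, had fold enrichments of 3.40 and 3.44. Sh2d3c, a signalling adaptor, had 3.24 and 3.36 with 36.8% purines. Both were above 3 in both replicates, which held for 67 of the 2575 intervals.

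Exons with a peak in a single list differed between the replicates. The 1956 short exons with a replicate 1 peak and no base of a replicate 2 peak had 59.6% purines and GGACT in 18.3% of windows. The 1613 with a replicate 2 peak only had 54.95% purines and GGACT in 24.7%, with a GC content of 55.4% against 49.3% for replicate 1. The difference between the lists was not tested, and library, depth and RNA quality cannot be told apart from it.

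The coverage of internal exons by peaks depended on exon length. Of the eligible bases in short internal exons (7.47 Mb), 9.61% lay in replicate 1 peaks, 9.84% in replicate 2 peaks and 5.68% in shared intervals. Of those in long internal exons of the same gene set (4.72 Mb), the shares were 42.8%, 40.1% and 32.9%. The number of shared intervals was 344.7 per Mb in short and 792.4 per Mb in long exons, a ratio of 0.435. This ratio came to 0.613 with the replicate 1 list alone and 0.600 with the replicate 2 list alone, and to 0.201 when only peaks of a fold enrichment of at least 2 were used. Within the short exons the coverage changed less with length. Shared intervals covered 6.31% of the bases in exons under 50 nt, 4.47% from 50 to under 100 nt, 5.40% from 100 to under 150 nt and 6.72% from 150 to under 200 nt. Above the limit the coverage was larger, with 9.88% from 200 to under 300 nt, 26.9% from 300 to under 500 nt and 53.7% from 500 to under 1000 nt. In exons of 1000 nt or longer it was 49.5%, below the class before it.

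**Figure D3:**
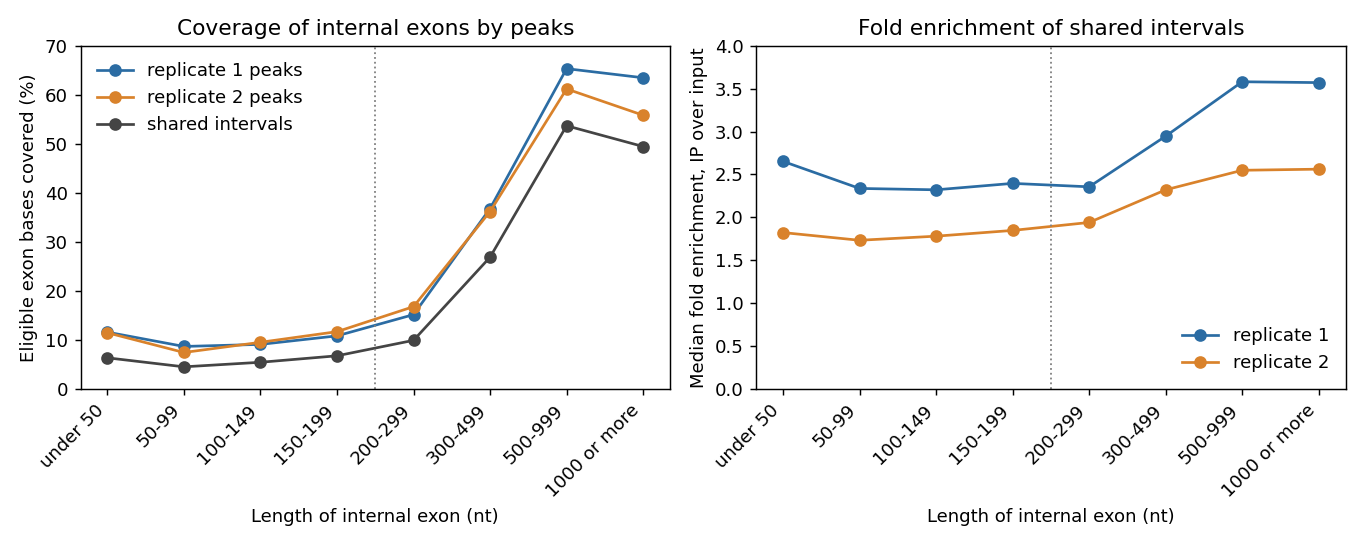
Left, share of eligible exon bases (y axis, %) in peaks of each replicate and in shared intervals, by length of the internal exon (x axis, nt). Right, median fold enrichment (y axis, IP over input) of shared intervals in each replicate by the same lengths. The dotted line stands at 200 nt. Coverage by shared intervals is 4.47% to 6.72% in exons from 50 to under 200 nt. It is 53.7% from 500 to under 1000 nt and 49.5% at 1000 nt or longer.

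Short-exon intervals were weaker than those of long internal exons. Their fold enrichment had a median of 2.37 in replicate 1 (quartiles 1.84 and 3.05, range 1.09 to 9.92). In replicate 2 the median was 1.80 (quartiles 1.52 and 2.14, lowest 1.07, highest 6.03). The 3757 intervals in long internal exons had medians of 3.26 in replicate 1 and 2.40 in replicate 2. On the log2 scale the means were 1.26 ± 0.52 (SD over intervals) against 1.67 ± 0.56 in replicate 1, and 0.88 ± 0.36 against 1.26 ± 0.39 in replicate 2. The distributions overlapped in both replicates. Both values were 2 or more in 738 short-exon intervals, 28.7% (95% Wilson interval 26.9 to 30.4), and in 70.1% (68.7 to 71.6) of those in long exons, with 62.6% over all placed intervals. Fisher's exact test over intervals gave an odds ratio of 0.171 (0.153 to 0.191) and an adjusted p = 5.45e-237. Intervals are not independent replicates, and 2 samples stand behind every value.

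**Figure D4:**
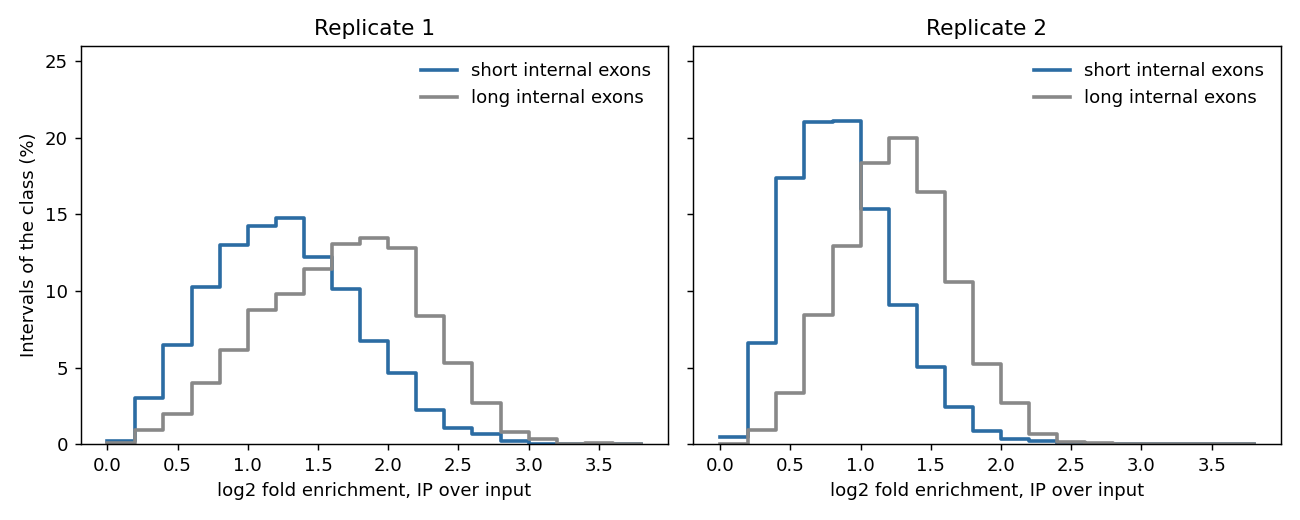
Distribution of the log2 fold enrichment of IP over input (x axis) in shared intervals of short and of long internal exons (y axis, % of the intervals of the class), for replicate 1 (left) and replicate 2 (right). In both replicates the short-exon curve lies to the left, with mean log2 values of 1.26 against 1.67 and 0.88 against 1.26, and the curves overlap.

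The order was the same inside single genes. In the 586 genes that had intervals of both kinds, the median for long exons was above that for short exons in 71.3% of genes in replicate 1 and 74.6% in replicate 2, and in both replicates in 353 genes, 60.2%. At the limit itself the change was small. The 62 intervals in exons of the 5 lengths just below the limit had medians of 2.49 and 1.81, and the 56 in exons of the 5 lengths from the limit upwards had 2.71 and 2.02.

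Peaks on short exons were also found again less often. Of 4843 replicate 1 peaks centred on a short internal exon, 51.02% (95% Wilson interval 49.6 to 52.4) overlapped a replicate 2 peak, compared with 75.5% (74.3 to 76.7) of 4722 in long internal exons and 60.0% of all replicate 1 peaks (odds ratio 0.337, Fisher's exact test over peaks, adjusted p = 4.86e-138). Of 4421 replicate 2 peaks on short exons, 58.7% (57.2 to 60.1) overlapped a replicate 1 peak, compared with 81.6% (80.4 to 82.7) of 4432 in long exons and 77.0% of all (odds ratio 0.3201, Fisher's exact test, adjusted p = 4.84e-125). With an overlap of at least 50% of both peaks the odds ratios were 0.538 and 0.554, and with peaks enriched 2-fold or more they were 0.188 and 0.202, in the same order. Replicate 1 had the higher value in 80.3% of the short-exon intervals and in 80.5% of those in long exons. Spearman's rho between the replicates over the 2575 intervals was 0.500.

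The intervals were wider than the exons. Their median length was 331 nt (quartiles 298 and 356) on exons with a median of 133 nt, and 2417 of them, 93.9%, covered the whole exon and reached over both borders. The exon itself made up a median of 39.9% of the bases of the interval. In 2274 intervals, 88.3%, no other exon of the transcript was touched, 245 touched 2 exons and 56 touched 3 or more. An exon of 200 nt or longer was touched by 26. The midpoint lay a median of 17 nt from the centre of the exon. The shortest peak in either list was 200 nt, so that no single peak could fit into such an exon, and whether the flanking bases stem from reads in introns or from the extension of reads by the peak caller could not be read from the lists.

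Some neighbouring exons carried an interval as well. The matching shares for exons with no peak were not computed, so that no excess can be read from these counts. Of the 2575 exons, 1091 (42.4%) lay next to another short exon with an interval, and 1562 (60.7%) next to an exon with any placed interval. Fragments of spliced mRNA can reach over short exons, so that neighbours need not be separate sites. An exon of 200 nt or longer was a direct neighbour of 30.8% of the exons with an interval and of 24.2% of those with no peak. The exons with an interval were somewhat longer (median 133 nt against 114 nt). Of exons spanned by several coding transcripts, 83.0% with an interval and 86.8% with no peak were present in all of them.

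By position, 646 intervals lay in the first, 1097 in the middle and 832 in the last of 3 equal parts of the CDS, 25.1%, 42.6% and 32.3%. Of the eligible short exons, 31.3%, 39.1% and 29.7% lay in these parts, so that the first held a smaller share of the intervals than of the exons. This difference was not tested. The midpoint was a median of 1133 nt from the start codon and 1011 nt from the stop codon.

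The 20 strongest intervals, 1 per gene and in the order of the smaller of their values, were led by genes of diverse roles. Aebp1, which encodes a secreted carboxypeptidase-like matrix protein, had 4.35 in replicate 1 and 4.42 in replicate 2, in exon 4 (chr11:5864696-5865447). This interval of 752 nt touched 4 exons, and the fold enrichment belongs to the peak as a whole. Sh3bgr, whose protein has a glutamate-rich tail, had 9.92 and 4.25 in exon 7 (chr16:96224319-96224673), the largest value of replicate 1 among short-exon intervals. Tnnt2, the cardiac troponin T gene, had 4.17 and 4.28 in exon 10 of 117 nt (chr1:135847850-135848180). Sh3bgr stood out for the gap between its replicates, whereas Aebp1 and Tnnt2 were nearly level.

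Next came Rph3al, a Rab effector of regulated secretion (4.81 and 4.11), and Col7a1, the collagen of anchoring fibrils, with 4.07 and 4.90 in exon 88. Dach1, a transcriptional cofactor of development, had 4.05 and 4.50. Nkap, a nuclear regulator of transcription and splicing, had 3.93 and 4.85. The replicate 2 value was the higher in Aebp1, Tnnt2, Col7a1, Dach1, Nkap and Inf2, and replicate 1 was higher in the other 14.

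Several of the strongest intervals were in genes of nuclear and cytoskeletal proteins active in brain. Chd2, a chromatin remodeler, had 6.78 in replicate 1 and 3.90 in replicate 2 in exon 6 (chr7:73507686-73508048) with 71.6% purines. Dbn1, which encodes the dendritic spine actin-binding protein drebrin, had 7.83 and 3.76 in exon 7 (chr13:55481213-55482112) with 73.1% purines. Safb, a nuclear scaffold and RNA-binding protein, had 6.92 and 3.72. Khdrbs2, a splicing regulator of neurons, had 6.31 and 3.68. In these genes replicate 1 was well above replicate 2.

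Dnajc2, a chaperone that sits on the ribosome, had 6.84 and 3.69 with 70.7% purines. Prkcsh, the beta subunit of glucosidase II, had 6.89 and 3.55 with 68.2% purines. Ubxn4, a protein of endoplasmic reticulum degradation, had 4.42 and 3.72, and its window had the highest purine share of the 20, 76.6%. Ppp1r12c, a myosin phosphatase subunit, had 5.99 and 3.66, and Inf2, a formin that assembles actin, 3.58 and 3.61. Brdt, a bromodomain protein known from testis, had 5.76 in replicate 1, the second value being 3.8. The others were Fam227a (4.09 and 3.90), Ccdc173 (3.94 and 3.84) and Ccdc153 (3.75 and 3.67). Of the 20, 17 had a purine share above 60%, 2 had GGACT in the window, and 12 touched a single exon. Tnnt2, Col7a1 and Brdt are known mainly from other organs, and their input coverage in brain was not in the lists.

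**Figure D5:**
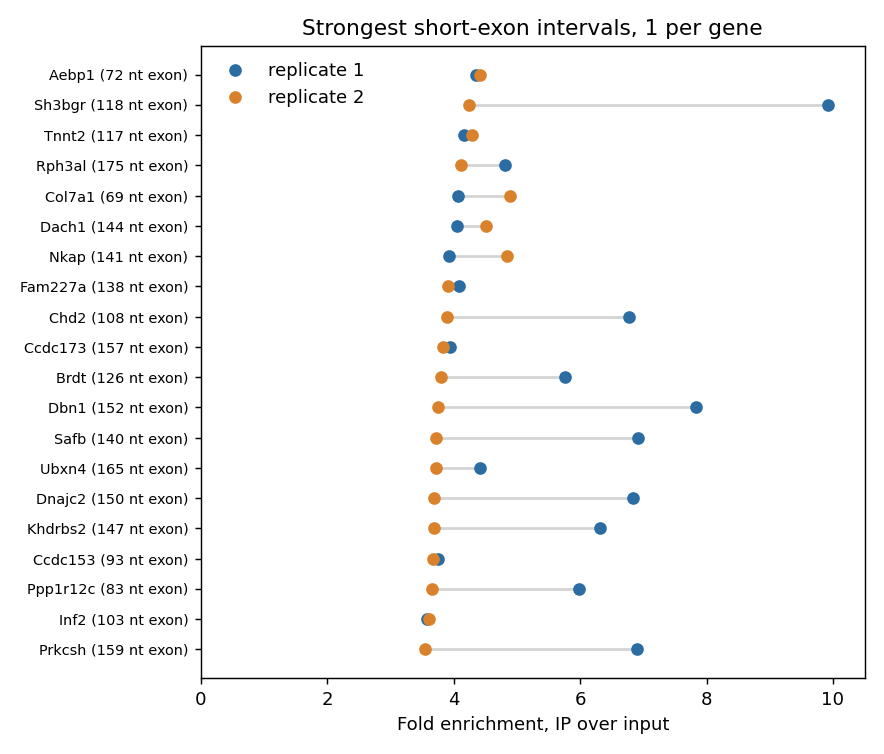
Fold enrichment of IP over input (x axis) in replicate 1 and replicate 2 for the 20 strongest short-exon intervals, 1 per gene, in the order of the lower value (top to bottom, with the length of the exon). The lower values lie between 3.55 and 4.35, and the largest gap is that of Sh3bgr, 9.92 against 4.25.

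Very short exons are described on their own because so little of a peak can lie in them. Of 3215 eligible exons of at most 51 nt, 90 held an interval, 2.80%, in 80 genes, compared with 2.62% of exons from 52 to under 100 nt, and 3 of these exons were of at most 27 nt. Counted per Mb of exon, exons under 50 nt had 798.3 intervals, compared with 332.4 to 351.6 in the other short length classes and 792.4 in long internal exons. This count is raised in very short exons, where an interval far wider than the exon counts in full. Shared intervals covered 6.31% of the bases in exons under 50 nt and 32.9% in long internal exons. An interval was held by 2.88% of the former exons and 25.3% of the latter. The 90 intervals in exons of at most 51 nt had a median fold enrichment of 2.62 in replicate 1 and 1.82 in replicate 2. The strongest lay in exon 97 of Col7a1, of 36 nt, with 6.22 and 3.91. Srrm2, a spliceosome scaffold rich in serine and arginine, had 3.01 and 3.83 in a 33 nt exon, and its interval of 955 nt touched 3 exons. Fhod3, a formin, had 3.54 and 3.14 in a 51 nt exon. The collagen genes Col9a3 (3.79 and 2.76) and Col6a2 (2.67 and 3.19) followed, each in a 45 nt exon. Of these 5 intervals all but that of Fhod3 touched a neighbouring exon, and 77 of the 90 touched a single exon.

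Most of these genes had a single short-exon interval. One was found in 873 genes, 2 in 341, 3 in 163, and 4 or more in 107. Syne1, which encodes the giant nuclear envelope linker nesprin-1, had 10, in 10 of 117 eligible short exons. Erc1, an active zone scaffold of coiled coils, had them in 9 of its 16 eligible short exons, where fold enrichment ranged from 2.02 to 2.83 in replicate 1 and from 1.45 to 2.36 in replicate 2.

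With 8 intervals each followed Chd2, Chd5, Ktn1, Mdn1, Myh10 and Tnik. In Mdn1, a giant ATPase of ribosome assembly, 5 of the exons were consecutive (exons 84 to 88), and its 8 intervals spanned 2.21 to 5.44 in replicate 1 and 1.47 to 2.94 in replicate 2. In Chd2 exons 4 to 7 were consecutive. The median purine share was 67.9% in Mdn1, 67.4% in Chd2, 66.4% in the neuronal remodeler Chd5, 65.4% in Myh10, which encodes non-muscle myosin IIB, 64.2% in Ktn1, the kinesin-binding coiled-coil protein kinectin, and 62.9% in the kinase gene Tnik.

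Gene groups differed in how many of their short exons carried an interval, and their shares were set beside 20.5% of all genes tested and 3.82% of all eligible short exons. Among motors of microtubules and actin, 17 of 22 tested genes had an interval, in 58 of 606 short exons (9.57%). Examples were Myh14, a non-muscle myosin, with 4.83 and 3.02, Myo6, the minus-end-directed myosin, with 4.77 and 2.73, and Kif21b, a kinesin, with 2.50 and 2.67. Chromatin regulators had one in 21 of 32 genes and 57 of 742 exons (7.68%), with Crebbp, an acetyltransferase, at 4.89 and 3.37, Chd3 at 3.69 and 2.95 and Chd1 at 2.95 and 2.79. These shares do not take into account expression or the number of exons per gene and were not tested.

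Groups of the RNA machinery were also above these shares. Of genes of the exon junction complex and of nonsense-mediated decay, which degrades mRNAs with premature stops, 8 of 14 had an interval, in 15 of 178 exons (8.43%). Upf3b and Upf3a, paralogs that link both, had 5.04 and 3.05 in exon 7 and 6.29 and 2.35 in exon 7, with purine shares of 86.1% and 80.1%. Pnn had 2.45 and 2.52 at 60.7% purines. Of m6A writers, erasers and readers, 7 of 15 had one, in 14 of 152 exons (9.21%). This list counted Prrc2a, described next, with 4 of the 14 exons, and Prrc2c with 2. Zc3h13, a writer subunit, had 3.23 and 2.48, Ythdc1, the nuclear reader, 2.35 and 2.07, and Prrc2c 2.44 and 2.96.

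Prrc2a, the m6A-binding protein at the centre of the study, had 4 short-exon intervals. Of 9 listed genes of the study text, 5 could be tested, and Prrc2a was the only 1 with any. This was 20%, near the 20.5% of all genes tested. Exon 7 (chr17:35160952-35161227, minus strand) had 4.43 in replicate 1 and 1.90 in replicate 2. Exon 9 (chr17:35160452-35160671) had 4.43 and 1.64, exon 4 had 2.22 and 1.90, and exon 3 had 1.73 and 1.94. In replicate 1 a single peak gave the values of exons 7 and 9, and in replicate 2 a single peak gave those of exons 7 and 4, so that the 4 intervals are not 4 separate measurements. The purine shares of 43.3% to 52.7% were below the mean of exons with an interval.

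Cytoskeletal linkers, ankyrins and spectrins had an interval in 12 of 18 genes but in 34 of 836 exons, 4.07%, close to the share of all exons. Tln2 had 2.77 and 2.89, Utrn 2.38 and 2.35, and Dst 2.22 and 2.17. Genes of synaptic release had one in 10 of 23 genes and 27 of 457 exons (5.91%), with Syt1, the calcium sensor of vesicle fusion, at 3.23 and 2.64 and Erc2 at 3.42 and 2.59. For mTOR and PI3K signalling it was 5 of 15 genes and 8 of 257 exons (3.11%), with Tsc1, the hamartin gene, at 3.58 and 1.69 and Pik3r1 at 2.67 and 1.89.

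In the remaining groups the share of short exons with an interval was below 3.82%, while the share of genes was above 20.5% in all but axon guidance. Voltage-gated sodium and calcium channel subunits had intervals in 9 of 15 genes but 11 of 457 exons (2.41%), Cacna1a, the P/Q-type channel, having 3.15 and 2.01. Lipoprotein receptors and matrix proteins had them in 5 of 14 genes and 8 of 433 exons (1.85%), with Col4a1 at 4.75 and 2.49. Ubiquitin ligases and deubiquitinases had them in 8 of 19 genes and 13 of 904 exons (1.44%), with Hectd4 at 2.77 and 2.15 and Mycbp2 at 2.48 and 2.08. Axon guidance ligands and receptors had the lowest share of exons, with 4 of 31 genes and 4 of 604 exons (0.662%), in Plxnc1 (3.20 and 1.79), Neo1 (2.52 and 1.44), Slit3 (1.40 and 1.58) and Plxnb1 (1.30 and 2.07).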

How the data were processed

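Fold enrichment ratios of m6A peaks were deposited by the authors as 1 list per IP replicate, with chromosome, start and end in mm10. The deposited coordinates, the only other measured column, were used with both ends counted. By the methods of the study, adapters were trimmed with Cutadapt, short reads were removed with Trimmomatic, uniquely mapped TopHat alignments were kept, and MACS2 called peaks in each IP against its own input with no fragment model and with all duplicates kept, without pooling. The processing notes name TopHat2 2.0.9, whereas the methods name a later version, and which one made the lists is not settled. Fold enrichment therefore depends on input coverage, and duplicates can raise it where molecules are few. The lists hold no read counts, so that the depth is unknown and no floor is given. The input samples came without peak lists.

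Lists were intersected at 1 bp or more, with the same number of intervals as bedtools 2.31.1. Midpoints were placed on 21866 representative transcripts (longest CDS per protein-coding gene, GENCODE M21, 98.2% starting with ATG), leaving out those in exons of several genes. Eligible exons were internal exons of genes with a placed interval that held a CDS base more than 200 nt from both codons and overlapped no other gene's exon. Python 3.11.15, scipy 1.17.1 and pysam 0.24.0 were used, and the code was tested on simulated peaks. The 4 comparisons with a test used two-sided Fisher's exact tests with Benjamini-Hochberg adjustment over the 4. Shares have 95% Wilson intervals.

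The intervals and gene lists were chosen with earlier results of these data known. Named genes were the 20 intervals, 1 per gene, with the largest lower fold enrichment, the genes with the most intervals (all ties at 8), the 5 strongest in exons of at most 51 nt, and up to 4 per gene list. Some genes and sequences that met these rules are not reported here. Wnk3, Sh2d3c and the purine-rich stretches were chosen after the values had been seen. Alternatives changed the overlap, the fold enrichment minimum, the representative transcript, the exon and codon limits, the chromosomes, the motif and its window.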

Additional observations from a re-analysis of the deposited data

How the results depend on the processing

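Of 79 alternative values over 10 results, 63 were labelled the same, 15 moved, 1 lost its call and 0 reversed. Counts were the same within a set factor, and odds ratios when their p stayed on its side of the threshold. Other values were the same when they changed by less than the SD between the replicates. This SD was 0.403 for the median fold enrichments, a wide margin, 0.00918 for the ratio of intervals per Mb and 0.994 percentage points for the purine excess. The number of short-exon intervals was 738, in 539 genes, when both lists were limited to peaks enriched 2-fold or more, and 1704 with an exon limit of 150 nt. With 1 list alone it was 4421 to 4843, in 2393 to 2452 genes, since peaks then needed no counterpart. The ratio of intervals per Mb in short over long exons was 0.505 with an overlap of at least 50% of both peaks, 0.201 with peaks enriched 2-fold or more in both lists, 0.412 at 400 nt from the codons, and 0.600 to 0.613 with 1 list alone, below 1 under every alternative run. The purine excess of 8.74 percentage points was 9.79 within the exon itself and 6.18 to 7.59 with 1 list alone. These purine alternatives were chosen after seeing the data. The odds ratio of GGACT lost its call with GGAC (0.966). The odds ratios of finding a peak in the other list, 0.337 and 0.3201, were 0.538 and 0.554 with the 50% overlap and 0.188 and 0.202 with the 2-fold limit, and remained past the threshold. The cause of these moves was not tested. No paired analysis was possible because the input samples, which share replicate numbers with the IP samples, came without peak lists. With 2 IP samples, no test over samples could be made, and unknown read depth limits what the absence of a peak in an exon means.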
